A study of Mus musculus with 7 samples.

Results

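The autophagy machinery genes are 39 mouse genes, picked by name for their known parts in building the autophagosome, out of 55487 genes counted in 7 nascent RNA libraries. All 39 were found in the count table by their Ensembl identifiers. The cells were GFI1+ IAHC, meaning CD31+cKIT+GFI1+ cells from the blood-forming clusters inside the aorta, recognized by their Gfi1:tomato reporter and sorted from E11.5 AGM (aorta-gonad-mesonephros) of CD1 embryos. Before the experiment, all cells, those of the control included, spent the night in compE, which blocks γ-secretase, the protease that frees the active part of Notch receptors. They were then washed, divided into sets of 300 to 400 cells and cultured for 4 h in methylcellulose with EU, a uridine analog that marks newly made RNA. During those 4 h they received recombinant Fc-JAG1, a Notch ligand joined to an antibody tail (samples 1 and 3), compE again (samples 1 and 2), or the solvent DMSO (washout, samples 1, 2 and 3). Amounts are left out because the labels and the methods give them in differing units. A number marks 1 biological sample, which the labels call an embryo and the methods describe as pooled material, and the RNA of each small set of cells was amplified before sequencing.

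Autophagy wraps part of the cytoplasm in a double membrane and delivers it to the lysosome. The ULK kinase complex starts the process, a class III PI3 kinase complex marks the growing membrane with the lipid PI3P, and PI3P-binding proteins and lipid carriers extend it. Enzymes related to those that attach ubiquitin then join ATG8 proteins (the LC3 and GABARAP families) to the membrane, where cargo receptors bind them, and TFEB switches on many genes of this pathway and of lysosomes. Blood stem cells are known to need autophagy to clear mitochondria and to stay quiescent. The comparisons with Fc-JAG1 and with compE ask how nascent transcription answers to a Notch ligand and to a continued block of Notch cleavage, each set against cells freed of the inhibitor.

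Total counts ran from 26352927 to 32696854 with Fc-JAG1, from 28417502 to 33974693 with compE and from 21652927 to 31680553 in the washout. The libraries differed in how many genes they held at all: of the 10311 genes that reached 10 counts in 2 replicates of a condition or more, 90.5% and 69.9% had 10 counts in Fc-JAG1 1 and 3, 71.1% and 92.4% in the first and the second compE library, and 56.2%, 94.2% and 68.0% in washout 1, 2 and 3. Of 13 defining markers of the sorted cells, 9 to 10 had 10 counts with Fc-JAG1, 10 with compE and 9 to 12 in the washout. Runx1, Kit, Myb, Spi1 and Cd34 were among them in every library, whereas Gfi1 itself was at 0 in Fc-JAG1 3, both compE libraries and washout 1, and the endothelial Cdh5 reached 10 counts in washout 1 only, with 139. The summed level of 11 macrophage markers was 449 to 566 CPM (counts scaled to library size) with Fc-JAG1, 92.0 to 434 with compE and 373 to 558 in the washout, and 8 mesenchyme markers summed to at most 7.28, 18.7 and 28.9 CPM in the 3 conditions. Summed over 11 erythroid markers, the level was 199 and 82.8 CPM with Fc-JAG1, 22.9 and 203 CPM with compE, and 20.1, 569 and 39.1 CPM for the washout, thus low in washout 1 and 3 and high in washout 2, as were Rb1cc1, Becn1 and Wipi2. The part of these differences in the results was not tested.

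Fewer autophagy genes were counted in the gene-poor libraries, as was the case for all genes. Of the 39 genes, 31 and 21 had at least 10 counts in Fc-JAG1 1 and 3, 25 in compE 1, 36 in compE 2, and 13, 31 and 18 in washout 1, 2 and 3. The number in the gene-poor washout 1 was the lowest of the 7, and that in compE 2 was the highest. In all, 32 of the 39 passed the filter of 10 counts in 2 replicates of a condition and could be tested, and 7 did not (Atg101, Wipi1, Wdr45, Atg9a, Atg4c, Map1lc3a and Map1lc3b). Among the 32, the share with 10 counts was 87.5% and 65.6% with Fc-JAG1, 78.1% in compE 1 and the whole set in compE 2, and 40.6%, 87.5% and 53.1% in the washout. The share lay below that of all tested genes in both Fc-JAG1 libraries and all 3 washout libraries, and above it in both compE libraries. Only 5 genes, Ambra1, Atg7, Gabarapl1, Tax1bp1 and Tfeb, had 10 counts in all 7 libraries.

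**Figure D1:**
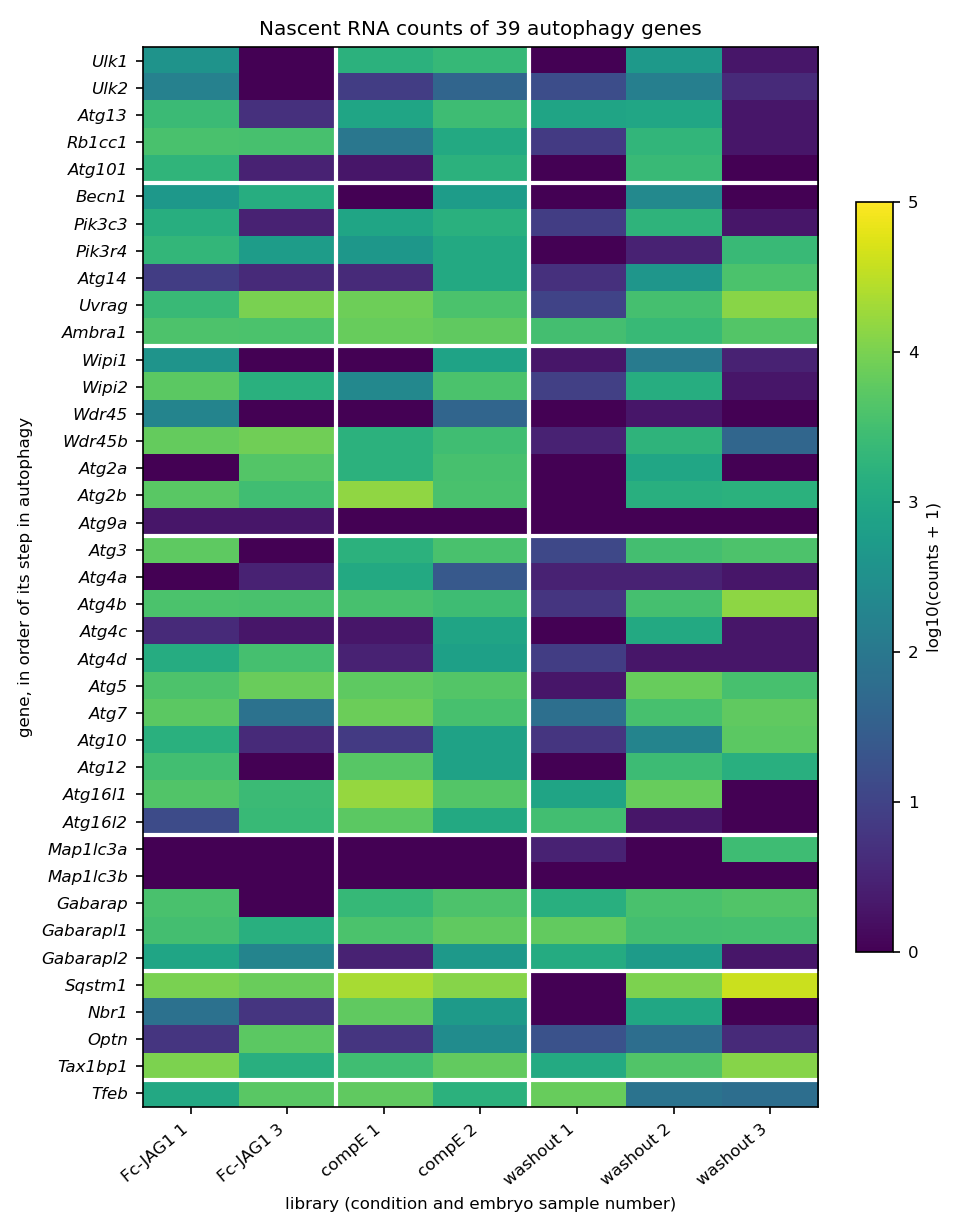
Nascent RNA counts of the 39 autophagy genes, as log10(counts + 1), with 1 row per gene in the order of its step in autophagy (white lines part the steps) and 1 column per library. Most genes switch between about 0 and high counts from library to library, also within a condition, and the column of washout 1 holds 13 genes with at least 10 counts against 36 in that of compE 2.

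**Figure D2:**
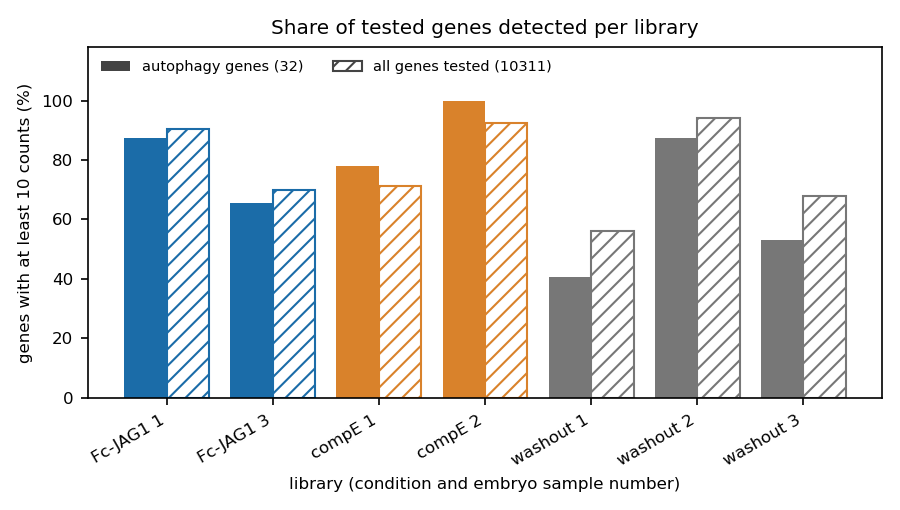
Percent of genes with at least 10 counts in each library, for the 32 autophagy genes that passed the filter (solid bars) and for all 10311 genes that did (hatched bars). The autophagy genes stand above the hatched bars in compE 1 and 2 only, and the lowest share, 40.6%, is in washout 1.

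With Fc-JAG1, newly made RNA of Becn1, the scaffold of the class III PI3 kinase complex, of the PI3P-binding proteins Wipi2 and Wdr45b, of Rb1cc1, the scaffold of the ULK complex, and of the protease Atg4d stood above the level in every washout library. DESeq2 called these 5 and also Pik3r4 and Atg16l1 higher, 7 of 32 (21.9%), and called 0 lower. Over all genes tested, DESeq2 called 15.7% higher and 4.74% lower with Fc-JAG1. Becn1 and Atg4d passed the filter only through the Fc-JAG1 libraries, and Atg14 only through the washout, so they were tested only because they were counted there. The shares of all genes rest on the same filter. edgeR's quasi-likelihood test, the main test here, called 0 of the 32 autophagy genes and 0.0% of all genes (Benjamini-Hochberg adjusted p of 0.828 or more for the 32). At an unadjusted p under 0.05, edgeR had 5 of the 32 higher, Becn1, Wipi2, Wdr45b, Rb1cc1 and Atg4d, and 0 lower, against 3.89% of all genes higher and 1.21% lower. The levels did not overlap between Fc-JAG1 and washout for 6 genes that were higher (18.8%), these 5 and Atg2b, and for 2 that were lower (6.25%), Atg14 and Gabarapl1, against 10.5% and 6.85% of all genes. The median edgeR log2 fold change of the 32 was 1.08, against 0.44 for all genes tested, and 22 were above 0. Without washout 1 these medians were 0.23 and 0.16, and with the size factors of DESeq2 they were 0.57 and 0.07.

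Both tests took the biological sample as a term, so Fc-JAG1 1 was set against washout 1 and Fc-JAG1 3 against washout 3, the 2 libraries with the fewest autophagy genes. Of the 39, 19 had 10 counts in Fc-JAG1 1 and not in washout 1, and 1 the other way, while 9 had them in Fc-JAG1 3 and not in washout 3, and 6 the other way. Of all tested genes, 90.5% had 10 counts in Fc-JAG1 1 and 56.2% in washout 1, and 69.9% in Fc-JAG1 3 and 68.0% in washout 3. A call also needs 10 counts in 2 replicates of either condition, so that Rb1cc1, Becn1, Pik3r4, Wipi2 and Atg4d, each with 10 counts in 1 washout library or none, cannot be called once a Fc-JAG1 library is left out. Without Fc-JAG1 3, DESeq2 called 0 of the genes, against 525 higher and 153 lower among all 10311. Without Fc-JAG1 1 it called 2 higher and 5 lower, against 604 and 1308 of all genes, so the calls turned to lower in both. It called 7 higher and 3 lower without washout 1, against 1240 and 697, and 2 higher and 1 lower without washout 3, against 554 and 135. Without the sample as a term (no block), it called Atg4d higher and Atg14 lower, against 154 and 234 of all genes, and gave no adjusted p for Rb1cc1, Becn1, Pik3r4, Wipi2 and Wdr45b. The median edgeR log2 fold change with no block was 0.02, against −0.16 for all genes.

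With compE, DESeq2 called Pik3r4, the lipid carrier Atg2a, the protease Atg4a and the cargo receptor Nbr1 higher than in the washout, 4 of 32 (12.5%), and called 0 lower, against 5.66% and 3.67% of all genes tested. Ulk1, Atg2a, Atg4a and Nbr1 passed the filter only through the compE libraries, so they were tested only because they were counted there. edgeR called 0 of the 32 and 0.0% of all genes, and had 0 of the 32 at an unadjusted p under 0.05, against 2.63% of all genes. Levels did not overlap for 5 genes that were higher with compE (15.6%), namely Ulk1, Wdr45b, Atg2a, Atg2b and Atg4a, and for 0 that were lower, against 10.9% and 6.79% of all genes. The median edgeR log2 fold change was 1.57 for the 32 and −0.10 for all genes, with 24 of the 32 above 0. The median of the 32 was 0.70 without compE 1 and 0.85 without washout 1, against −0.01 and −0.24 for all genes, and 0.77 with no block, against −0.14. Here compE 1 was set against washout 1, with 15 genes at 10 counts in compE 1 alone and 3 in washout 1 alone, and compE 2 against washout 2, with 5 and 0. Of all tested genes, 71.1% had 10 counts in compE 1 and 56.2% in washout 1, and 92.4% in compE 2 and 94.2% in washout 2. The 4 genes called by DESeq2, each with 10 counts in 1 washout library or none, cannot be called once a compE library is left out. Without compE 2, DESeq2 gave log2 fold changes of 14.23 for Atg2a, 9.16 for Atg4a, 13.56 for Nbr1 and 4.31 for Pik3r4. Without compE 1, DESeq2 gave 1.76, 3.43, −1.02 and 8.92 in this order. It called 1 higher without Fc-JAG1 1, Fc-JAG1 3, washout 1 or washout 3, where 43 to 132 of all genes were called higher and 71 to 110 lower, and 1 with no block, against 150 and 175. The comparisons with Fc-JAG1 and with compE share the 3 washout libraries, so their values are given side by side and were not set against each other.

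Set directly against compE, Fc-JAG1 gave higher Rb1cc1 and Becn1 and lower Atg4a by DESeq2, 2 and 1 of 32 (6.25% and 3.12%), against 9.18% and 2.21% of all genes. edgeR called 0 of the 32 and 0.0% of all genes, with 0 of the 32 at an unadjusted p under 0.05 against 2.83% of all genes. The libraries did not overlap for 3 genes higher with Fc-JAG1, Rb1cc1, Wdr45b and Atg4d, and for 5 lower, Ulk1, Atg4a, Gabarapl1, Sqstm1 and Nbr1, against 15.0% and 15.4% of all genes. Of the genes named here, Becn1 and Atg4d passed the filter only through Fc-JAG1, and Ulk1, Atg4a and Nbr1 only through compE. The median edgeR log2 fold change of the 32 was −0.47, against 0.43 for all genes, and it was 2.10 without compE 1. Only sample 1 is shared between these conditions. Leaving out compE 1 left DESeq2 with 0 calls among the genes, and with 92 higher and 0 lower among all genes. It called 2 higher and 4 lower without Fc-JAG1 1 (364 and 701 of all genes), 0 and 3 without Fc-JAG1 3 (28 and 194), and 1 and 3 without washout 3 (631 and 193).

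**Figure D3:**
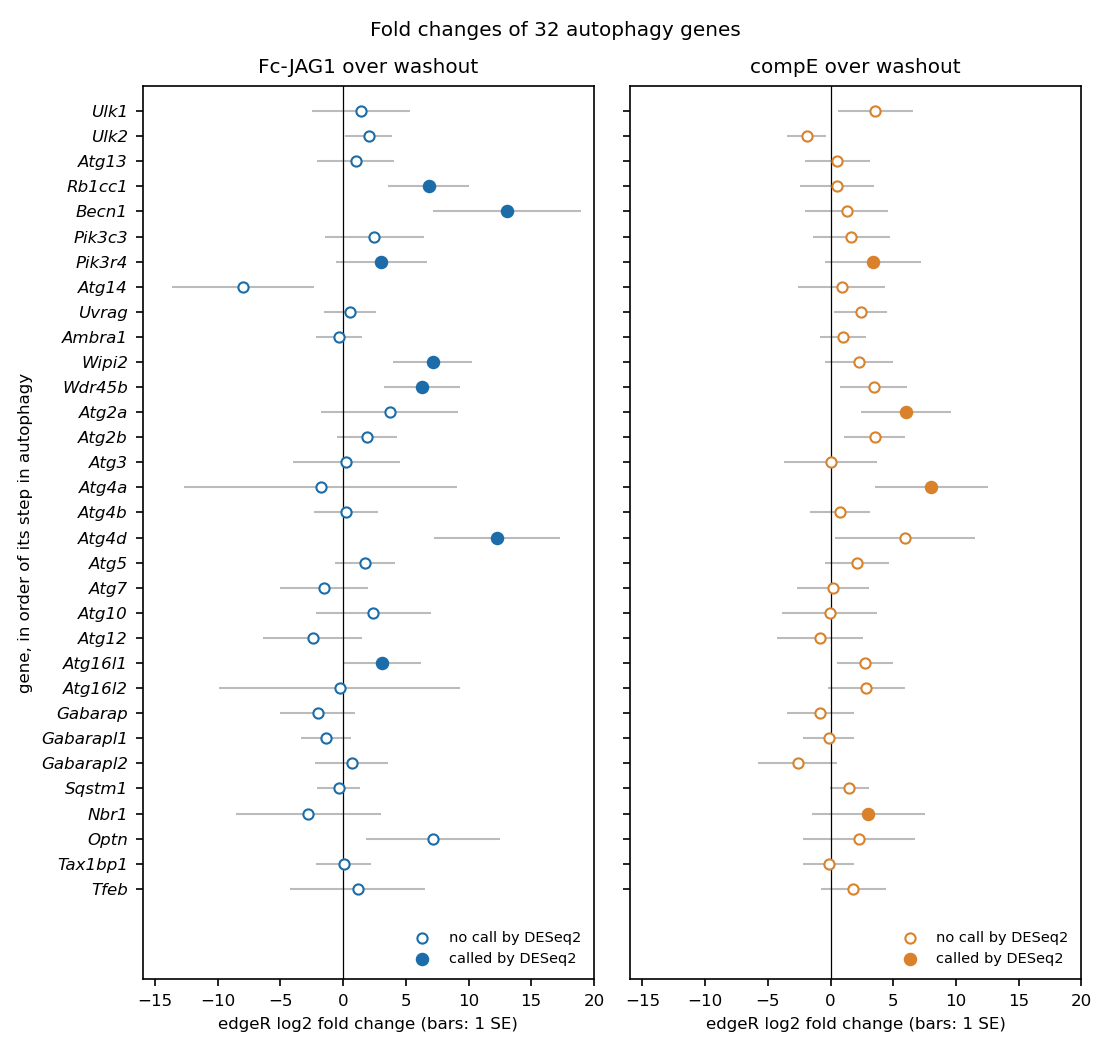
edgeR log2 fold changes of the 32 tested autophagy genes with Fc-JAG1 (left) and with compE (right) over the washout, with genes called by DESeq2 filled. Bars show 1 approximate standard error, worked back from the F statistic of the edgeR test. The filled points lie right of 0 in both panels, 7 with Fc-JAG1 and 4 with compE. The bars are as long as 10.9 on the log2 scale for Atg4a with Fc-JAG1, where DESeq2 gave a standard error of 2.25.

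Of the initiation complex, in which the kinases Ulk1 and Ulk2 sit with Atg13, Rb1cc1 and Atg101, Rb1cc1 (also known as FIP200; chromosome 1, 6206197 to 6276648 of GRCm38, plus strand) had 3621 and 3484 counts in Fc-JAG1 1 and 3. It had 96 and 1102 with compE, and 6, 1963 and 1 in washout 1, 2 and 3. Both Fc-JAG1 libraries were above all others, and washout 1 and 3 held almost none of this RNA. In CPM, normalized by the trimmed mean of M values (TMM), this was 123 ± 34.1 with Fc-JAG1, 16.1 ± 17.4 with compE (SD, n = 2 each) and 18.3 ± 31.3 in the washout (SD, n = 3). The log2 fold change of Rb1cc1 with Fc-JAG1 over the washout was 6.82 by edgeR (SE 3.24, unadjusted p = 0.0458, adjusted p = 0.828) and 9.03 by DESeq2 (SE 2.02, adjusted p = 0.000241). By DESeq2 it was 6.05 without Fc-JAG1 3 (adjusted p = 0.129) and 5.98 without washout 3 (adjusted p = 0.135). Over compE it was 6.94 by DESeq2 (adjusted p = 0.0343), a call that was lost without Fc-JAG1 3, either compE library, washout 2 or washout 3 (DESeq2 log2 fold changes of 4.98 to 10.56).

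Ulk1, the kinase that nutrient-sensing mTORC1 restrains, was higher in both compE libraries than in any other. Its counts were 367 and 0 with Fc-JAG1, 1665 and 2193 with compE, and 0, 514 and 1 in the washout. edgeR gave a log2 fold change of 3.58 with compE over the washout (SE 2.96, adjusted p = 1.00). Ulk2, a relative of Ulk1, and Atg13, an adaptor of the complex, ran from 0 to 159 and from 1 to 2844 counts over the 7 libraries, and Atg101, which steadies Atg13, had 1662 to 2469 counts in Fc-JAG1 1, compE 2 and washout 2 and at most 2 in the others.

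**Figure D4:**
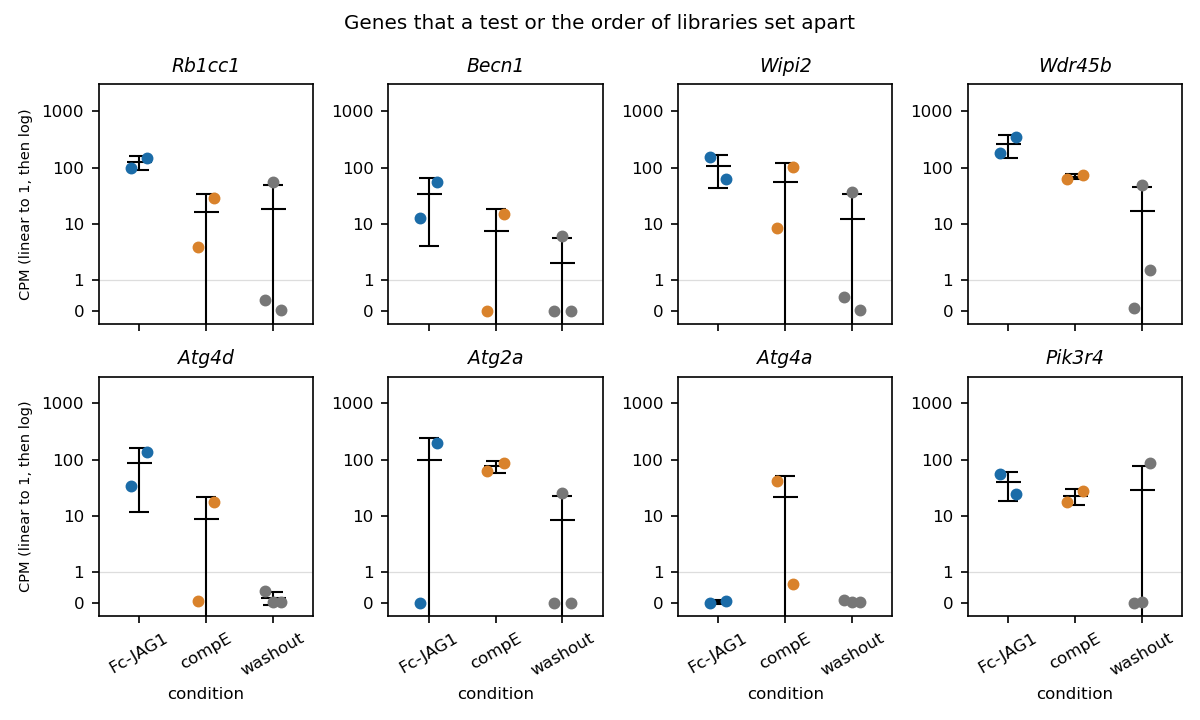
TMM-normalized CPM of 8 autophagy genes that DESeq2 called in a comparison or whose levels did not overlap, per library (points) with mean and SD (black), on an axis that is linear up to 1 and logarithmic above. With Fc-JAG1 the points of Rb1cc1, Becn1, Wipi2, Wdr45b and Atg4d lie above every washout point, and washout points of most of these genes lie near 0. Bars run below the axis where the SD exceeds the mean.

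The class III PI3 kinase complex is made of the lipid kinase Pik3c3 (VPS34), its anchor Pik3r4 (VPS15), Becn1, and either Atg14 or Uvrag, with Ambra1 as a regulator of Becn1. Becn1 (chromosome 11, 101285952 to 101302286, minus strand) had 468 and 1311 counts with Fc-JAG1, 0 and 588 with compE, and 0, 222 and 0 in the washout. Both Fc-JAG1 libraries were above the washout, and compE 2 lay between them. Its log2 fold change with Fc-JAG1 over the washout was 13.07 by edgeR (SE 5.92, unadjusted p = 0.0387, adjusted p = 0.828) and 11.54 by DESeq2 (SE 2.36, adjusted p = 6.49e-05). By DESeq2 it stayed between 10.16 and 13.02 without any single library, and the call held in the 5 fits that kept both Fc-JAG1 libraries. With no block, the edgeR value was 3.77 (adjusted p = 0.845) and DESeq2 gave no adjusted p. Of the exonic bases of Becn1, 43.9% also lie in exons of Cntd1 on the other strand, and as the strand setting of the counting is not given, reads of these 2 genes cannot be told apart.

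Pik3r4 had 2012 and 586 counts with Fc-JAG1, 445 and 1078 with compE, and 0, 2 and 2412 in the washout. The highest value was thus a washout library, and the groups overlapped. DESeq2 called it higher with Fc-JAG1 (log2 fold change 8.07, adjusted p = 0.0128) and with compE (8.18, adjusted p = 0.0252), where edgeR gave 3.05 (SE 3.65, adjusted p = 0.992) and 3.39 (SE 3.81, adjusted p = 1.00). The call with Fc-JAG1 was kept in 1 of the 7 fits that left out a library, that without washout 3, and by DESeq2 the fold change was −1.82 without Fc-JAG1 1 and 2.19 to 11.07 in the other 5 in which the call was lost. The call with compE was lost without either compE library, where 10 counts in 2 replicates are no longer reached. It was also lost without washout 1 or washout 2 (DESeq2 log2 fold changes of 4.27 to 8.92 over these 4 fits).

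Atg14, which steers the complex to the sites where autophagosomes form, was close to 0 with Fc-JAG1, at 7 and 3 counts. It had 3 and 1076 with compE, and 4, 425 and 3878 in the washout. The library washout 1, at 4 counts, was as low as the Fc-JAG1 libraries, and with CPM by total counts the groups overlapped. edgeR gave a log2 fold change of −8.01 with Fc-JAG1 (SE 5.66, adjusted p = 0.871), and DESeq2 −2.90 (adjusted p = 0.401). DESeq2 called it lower with no block (−8.47, adjusted p = 0.0210) and without Fc-JAG1 1 (−10.11, adjusted p = 0.00641), and gave −0.44 without Fc-JAG1 3 (adjusted p = 0.944). Ambra1 was one of the steadiest genes, with 3982 and 3816 counts with Fc-JAG1, 6964 and 6117 with compE, and 3255, 2316 and 4559 in the washout, and log2 fold changes by edgeR of −0.33 (SE 1.85) with Fc-JAG1 and 0.99 (SE 1.83) with compE. Pik3c3 ran from 1 to 1765 counts and Uvrag, the partner of Becn1 in endosomal complexes, from 9 to 12867, both lowest in washout 1 or 3.

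Among the PI3P effectors and lipid carriers, Wipi2, which reads PI3P and brings in the ATG16L1 conjugation complex, had 5525 and 1476 counts with Fc-JAG1. It had 212 and 3916 with compE and 8, 1325 and 1 in the washout. Both Fc-JAG1 libraries lay above all washout libraries, though 1325 in washout 2 is close to 1476 in Fc-JAG1 3. In CPM, this was 107 ± 63.0 with Fc-JAG1 and 54.7 ± 65.5 with compE (SD, n = 2 each), and 12.4 ± 21.1 in the washout (SD, n = 3). With Fc-JAG1 over the washout, edgeR gave a log2 fold change of 7.14 (SE 3.15, unadjusted p = 0.0325, adjusted p = 0.828) and DESeq2 8.66 (SE 1.85, adjusted p = 0.000125). The DESeq2 value was 6.89 without Fc-JAG1 3 (adjusted p = 0.0609) and 6.82 without washout 3 (adjusted p = 0.0642).

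Wdr45b (WIPI3), a relative of Wipi2, had 6544 and 8131 counts with Fc-JAG1, 1614 and 2900 with compE, and 2, 1770 and 43 in the washout. The 3 conditions did not overlap in CPM, at 180 and 344 with Fc-JAG1, 63.8 and 74.8 with compE, and 0.116, 49.1 and 1.53 in the washout. With Fc-JAG1 its log2 fold change was 6.31 by edgeR (SE 3.03, unadjusted p = 0.0486, adjusted p = 0.828) and 7.43 by DESeq2 (adjusted p = 0.00131). DESeq2 lost the call without Fc-JAG1 1 (7.79, adjusted p = 0.0607), Fc-JAG1 3 (6.58, adjusted p = 0.134), washout 1 (5.82, adjusted p = 0.0552) or washout 3 (6.51, adjusted p = 0.141). With compE it was 5.19 by DESeq2 and missed the threshold (adjusted p = 0.0563).

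Atg2a and Atg2b carry lipids from the endoplasmic reticulum into the growing membrane. Atg2a had 0 and 4691 counts with Fc-JAG1, 1601 and 3443 with compE, and 0, 911 and 0 in the washout, so that the Fc-JAG1 libraries took both extremes while both compE libraries lay above the washout. DESeq2 called it higher with compE (log2 fold change 11.17, adjusted p = 0.0288), where edgeR gave 6.01 (SE 3.59, adjusted p = 1.00), and the DESeq2 call was kept without washout 2 only (1.76 to 14.23 in the other fits that left out a library). Atg2b had 5345 and 2924 counts with Fc-JAG1, 15051 and 3621 with compE, and 0, 1416 and 1560 in the washout. In both treated conditions every library was above the washout, with edgeR log2 fold changes of 1.90 (SE 2.36) and 3.52 (SE 2.42). Of the others, Wipi1 and Wdr45, which also bind PI3P, had at most 803 and 183 counts, and Atg9a, the membrane protein of the seed vesicles, had at most 1 count in each library.

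Of 11 genes for ATG4 proteases, which trim ATG8 proteins, and for conjugation enzymes, DESeq2 called Atg4d and Atg16l1 higher with Fc-JAG1 and Atg4a higher with compE. Atg4d (chromosome 9, 21265293 to 21277772, plus strand) had 1229 and 3292 counts with Fc-JAG1, 2 and 691 with compE, and 7, 1 and 1 in the washout. It was the one gene of the 39 near 0 in all washout libraries with high counts in both libraries of another condition. In CPM, this was 86.6 ± 74.7 with Fc-JAG1 and 8.96 ± 12.6 with compE (SD, n = 2 each), and 0.157 ± 0.216 in the washout (SD, n = 3). edgeR gave a log2 fold change of 12.27 with Fc-JAG1 over the washout (SE 5.04, unadjusted p = 0.0240, adjusted p = 0.828), and DESeq2 8.99 (SE 2.46, adjusted p = 0.00298), with 6.71 without Fc-JAG1 3 (adjusted p = 0.172) and 6.64 without washout 3 (adjusted p = 0.180). Exons of Kri1 on the other strand cover 19.3% of its exonic bases, with the same limit as for Becn1.

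Atg4a reached 10 counts with compE alone, with 0 and 2 counts with Fc-JAG1, 1069 and 24 with compE, and 2, 2 and 1 in the washout. It was higher in both compE libraries, but nearly all of its counts were in compE 1. By DESeq2 its log2 fold change was 7.15 over the washout (adjusted p = 0.0165), with the call kept without washout 2 only (3.43 to 9.16 in the others). No call over the washout is possible without either compE library, by the same rule on counts. For Fc-JAG1 over compE the log2 fold change by DESeq2 was −9.51 (adjusted p = 0.00526). Between Fc-JAG1 and compE the call was lost without Fc-JAG1 1 (−4.59, adjusted p = 0.518) and without compE 2, where 10 counts in 2 replicates are no longer reached, and DESeq2 gave no adjusted p without compE 1. The 2 counts with Fc-JAG1 against 1093 with compE gave a ratio of 0.00193 (95% exact interval 0.000234 to 0.00700, for counting error only). The transcripts share 51.2% of their 50-base windows with those of other genes, the pseudogene Atg4a-ps among them, and how the unique mapping divided its reads was not tested.

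Atg16l1, which places the conjugation enzymes on the membrane, had 4480 and 2517 counts with Fc-JAG1, 16370 and 4620 with compE, and 843, 6834 and 0 in the washout. The groups overlapped, and the DESeq2 call with Fc-JAG1 (log2 fold change 6.33, adjusted p = 0.0186) turned to −0.74 without Fc-JAG1 3 and −0.81 without washout 3, and its adjusted p was 0.0526 to 0.0691 without compE 1, compE 2 or washout 2. Atg7, the activating enzyme at the head of both conjugation routes, had 5603 and 76 counts with Fc-JAG1, 7557 and 3471 with compE, and 65, 3543 and 6102 in the washout, which is low in Fc-JAG1 3 and washout 1 and higher in the other 5 libraries. The remaining 7, Atg3, Atg4b, Atg4c, Atg5, Atg10, Atg12 and Atg16l2, ranged from at most 5 counts in their lowest library to between 1090 and 13826 in their highest, and in washout 1 all but Atg16l2 had at most 11.

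Promoter sequences are shown for 4 genes whose results are described here and whose promoters differ in letters that Notch and TFEB are known to use. They are the 250 bases before the gene start in RefSeq (GRCm38.p6), which held entries for 32 of the 39 genes, and capitals mark a match to GTGGGAA, a sequence bound by the Notch partner RBPJ, or to CACGTG, the E box core, which TFEB reads best as TCACGTGA. Both strands were searched, and each TCACGTGA also holds a CACGTG. Gene starts differ between sources. In GENCODE M21, Wipi2 starts at 142627698 and Atg14, on the minus strand, at 47570649, so the windows shown for these genes lie inside them. The window of Atg3 runs past its GENCODE start at 45158785. The windows of Wipi2 and Atg4d hold none of these letters, that of Atg14 holds GTGGGAA, and that of Atg3 holds CACGTG at both marks, the nearer one as TCACGTGA. Any link between these letters and the counts was not tested.
Wipi2, chr5:142629334-142629583, plus strand: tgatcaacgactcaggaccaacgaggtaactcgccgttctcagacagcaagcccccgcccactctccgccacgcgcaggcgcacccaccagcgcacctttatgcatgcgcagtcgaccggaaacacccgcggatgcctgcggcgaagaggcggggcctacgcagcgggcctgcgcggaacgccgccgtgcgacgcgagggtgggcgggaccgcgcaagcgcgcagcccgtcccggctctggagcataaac
Atg4d, chr9:21265035-21265284, plus strand: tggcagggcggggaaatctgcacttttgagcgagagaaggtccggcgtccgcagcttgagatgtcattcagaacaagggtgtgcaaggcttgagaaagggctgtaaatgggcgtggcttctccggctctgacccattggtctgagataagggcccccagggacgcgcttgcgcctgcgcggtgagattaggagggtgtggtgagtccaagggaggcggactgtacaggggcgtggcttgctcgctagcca
Atg14, chr14:47568435-47568684, minus strand: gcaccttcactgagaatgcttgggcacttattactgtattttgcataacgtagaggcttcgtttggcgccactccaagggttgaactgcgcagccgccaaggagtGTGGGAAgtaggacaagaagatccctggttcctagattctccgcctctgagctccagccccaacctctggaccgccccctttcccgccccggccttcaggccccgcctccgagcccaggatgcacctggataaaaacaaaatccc
Atg3, chr16:45158579-45158828, plus strand: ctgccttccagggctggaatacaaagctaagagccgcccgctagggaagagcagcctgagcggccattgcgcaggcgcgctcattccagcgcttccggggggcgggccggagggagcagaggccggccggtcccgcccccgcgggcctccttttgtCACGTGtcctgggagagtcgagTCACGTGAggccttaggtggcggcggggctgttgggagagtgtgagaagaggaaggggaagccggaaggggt

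GTGGGAA was in 3 of the 38 promoter windows of autophagy genes that were searched (7.89%; Tax1bp1, Sqstm1 and Atg14), against 5.42% of all 32851 windows. CACGTG was in 3 of 38 (7.89%; Atg7, Atg5 and Atg3), against 6.02%, and TCACGTGA in 1 (2.63%; Atg3), against 0.785%. With all libraries and the block, none of the 3 genes with GTGGGAA was called with Fc-JAG1 or with compE by either test. With no block, DESeq2 called Atg14 lower with Fc-JAG1 (log2 fold change −8.47). Its DESeq2 value was −10.11 without Fc-JAG1 1, −0.44 without Fc-JAG1 3 and −0.50 without washout 3, and edgeR gave 0.97 without Fc-JAG1 3. A match is a description of these letters, and no match says only that they are not in this window.

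Of the ATG8 genes, which encode the proteins joined to the membrane, Gabarapl1 was the most even. It had 3133 and 1406 counts with Fc-JAG1, 3923 and 5974 with compE, and 6378, 3144 and 3401 in the washout. Both Fc-JAG1 libraries were below the washout in CPM, at 86.0 and 59.6 against 370, 87.1 and 121, the first of them by a narrow margin, and below compE, at 155 and 154. edgeR gave a log2 fold change of −1.38 over the washout (SE 1.97, adjusted p = 1.00) and −1.23 over compE (SE 2.50, adjusted p = 1.00), so no difference passed a test. Exons of 1700101I11Rik cover 28.3% of its exonic bases.

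Gabarap had 3709 and 0 counts with Fc-JAG1, 2272 and 3925 with compE, and 1423, 3679 and 4299 in the washout. It was high in 6 libraries and at 0 in Fc-JAG1 3. Gabarapl2 had 877 and 177 with Fc-JAG1, 2 and 507 with compE, and 1203, 545 and 1 in the washout, with no order between conditions. Map1lc3b, which encodes LC3B, the usual protein marker of autophagosomes, had 0 counts in all 7 libraries, which allows at most 3 counts in each, and Map1lc3a had 2746 counts in washout 3 and at most 2 in the others. Of the windows of Map1lc3b, 6.0% are shared with other transcripts, and the cause of its 0 counts was not tested.

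Cargo receptors tie ubiquitin-marked cargo to ATG8 proteins. Sqstm1 (p62) had 9877 and 7177 counts with Fc-JAG1, 22316 and 12626 with compE, and 0, 10110 and 40469 in the washout. The last value was the highest of any of the 39 genes, and the washout took both extremes. Nbr1, a relative of p62, had 73 and 5 counts with Fc-JAG1, 6022 and 523 with compE, and 0, 954 and 0 in the washout, and was called higher with compE by DESeq2 (log2 fold change 10.40, adjusted p = 0.00792; edgeR 3.02, SE 4.50, adjusted p = 1.00). That call was kept without washout 2 only. It could not be made without either compE library, where 10 counts in 2 replicates are no longer reached. By DESeq2 the log2 fold change was −1.02 without compE 1, 13.56 without compE 2 and 3.09 without washout 1. Tax1bp1 had 10510 and 1452 counts with Fc-JAG1, 2942 and 6274 with compE, and 1134, 4427 and 12394 in the washout, with edgeR log2 fold changes of 0.05 (SE 2.18) and −0.14 (SE 2.04), and Optn had 5619 counts in Fc-JAG1 3 and at most 265 in the others.

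Tfeb, the transcription factor of autophagy and lysosome genes, had 1022 and 5300 counts with Fc-JAG1, 6104 and 1633 with compE, and 6854, 79 and 62 in the washout. It was high in washout 1, where most autophagy genes were near 0, and low in washout 2 and 3. The edgeR log2 fold changes were 1.15 with Fc-JAG1 (SE 5.38) and 1.82 with compE (SE 2.61), with an adjusted p of 1.00 in both.

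**Figure D5:**
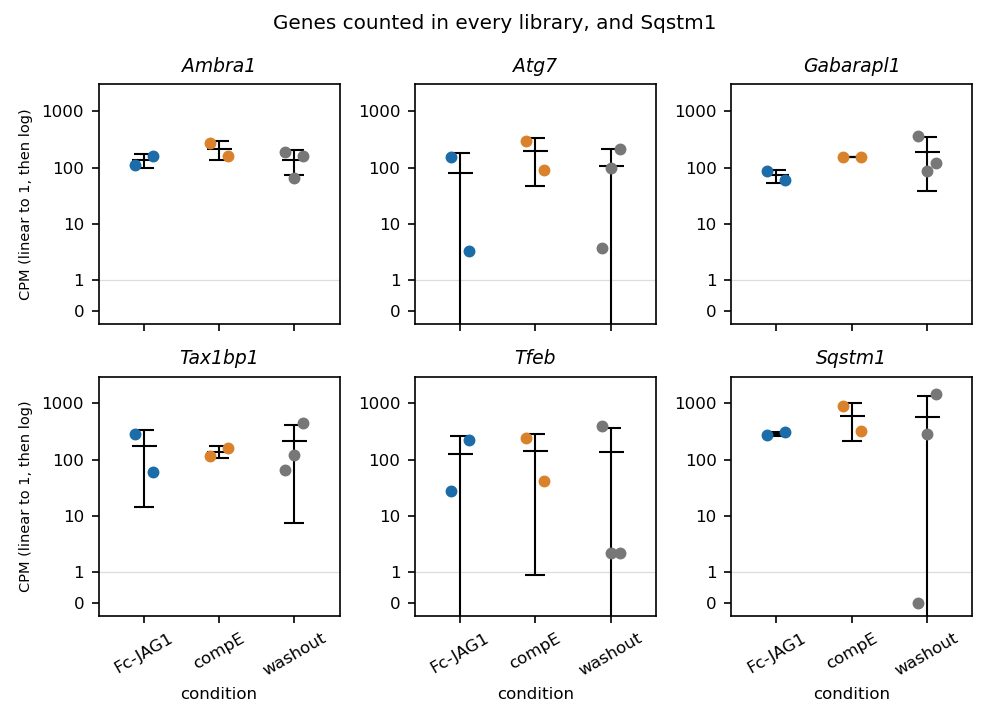
TMM-normalized CPM of the 5 autophagy genes with at least 10 counts in all 7 libraries, and of Sqstm1, per library (points) with mean and SD (black), on an axis that is linear up to 1 and logarithmic above. Ambra1 and Gabarapl1 stay within 64.2 to 275 and 59.6 to 370 CPM, while within the washout Tfeb runs from 2.19 to 398, Atg7 from 3.77 to 217 and Sqstm1 from 0 to 1440 CPM.

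Per kilobase of exon, the median level of the 5 genes present in every library was 60.2 CPM for Gabarapl1 (29.6 to 184 over the 7 libraries), 26.4 for Ambra1 (10.5 to 45.0), 14.1 for Atg7 (0.462 to 42.9), 12.3 for Tax1bp1 (6.16 to 44.2) and 7.43 for Tfeb (0.386 to 70.2). The ranges of neighbours in this order overlapped. In libraries of this kind, fewer cells that make a transcript and less of it per cell cannot be told apart.

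Around this machinery, 104 further genes of the pathway were read in 6 lists, of which 97 passed the filter. DESeq2 called 17 of them higher with Fc-JAG1 (17.5%, against 15.7% of all genes) and 2 lower (2.06%, against 4.74%). With compE it called 7 higher (7.22%, against 5.66%) and 4 lower (4.12%, against 3.67%). edgeR called 0 in either comparison. At an unadjusted p under 0.05 it had 3 higher and 0 lower with Fc-JAG1, against 3.89% and 1.21% of all genes. With compE it had 0 higher and 1 lower, against 2.63% of all genes in either direction. Of 24 tested genes of upstream nutrient and energy sensing, DESeq2 called 9 higher with Fc-JAG1 and 0 lower, against 15.7% and 4.74% of all genes. It called 0 to 3 higher in each of the other lists. Among the 9 were Tsc1 and Tsc2, the brake on mTORC1, Flcn, Rragc, Lamtor1 and Lamtor4, which bring mTORC1 to the lysosome, and Mlst8, one of its subunits. edgeR had 0 of the 24 at an unadjusted p under 0.05. Of the 9, only Tsc1 had both Fc-JAG1 libraries above every washout library. In each of the others a washout library was above a Fc-JAG1 library. Lamtor1 had 1639 and 1 counts with Fc-JAG1 and 0, 2695 and 2235 in the washout, so that washout 2 and 3 were above both Fc-JAG1 libraries. Prkab1 had 1611 and 0 counts with Fc-JAG1 and 0, 1760 and 1946 in the washout. Rragc had 2932 and 217 with Fc-JAG1 and 0, 2177 and 0 in the washout. Tsc1 had 4044 and 5247 counts with Fc-JAG1, 145 and 928 with compE, and 2, 3021 and 2 in the washout (DESeq2 adjusted p = 0.000197, edgeR adjusted p = 0.828), and Flcn had 2271 and 8428, 9197 and 5009, and 0, 3055 and 0 (DESeq2 adjusted p = 8.55e-05 with Fc-JAG1 and 0.000171 with compE). In Tsc1 and Flcn, as in Rb1cc1 and Wipi2, washout 1 and 3 were at or near 0 and washout 2 was not.

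Of 7 other transcription factors of autophagy and lysosome genes, DESeq2 called Tfe3, Tfec and Mitf, all relatives of TFEB, higher with Fc-JAG1 and Foxo4 lower. Over all genes tested it called 15.7% higher and 4.74% lower. Tfec had 3727 and 2085 counts with Fc-JAG1 and 0, 3483 and 7 in the washout, so that washout 2 was above Fc-JAG1 3. Foxo4 had 294 and 0 with Fc-JAG1 and 0, 264 and 137 in the washout, so that these conditions overlapped too. Tfe3 had 2782 and 5634 counts with Fc-JAG1, 0 and 1690 with compE, and 1, 2264 and 0 in the washout (edgeR log2 fold change 12.80, SE 5.39, unadjusted p = 0.0274, adjusted p = 0.828). Mitf had 484 and 794 with Fc-JAG1, 4 and 2640 with compE, and 4, 24 and 4 in the washout (edgeR log2 fold change 10.60, SE 4.70, unadjusted p = 0.0349, adjusted p = 0.828). In both genes each Fc-JAG1 library was above every washout library, whereas compE 1 was at or near 0.

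Of 17 genes of autophagosome maturation and fusion, Tecpr1, a tether of autophagosomes and lysosomes, was called higher by DESeq2 with Fc-JAG1 and with compE, with 471 and 2972, 189 and 2606, and 0, 54 and 1 counts in Fc-JAG1, compE and washout libraries, and Epg5, a tether as well, was lower with compE, at 3 and 25 counts against 880, 2103 and 13. Of 21 tested lysosomal genes, DESeq2 called 3 higher with Fc-JAG1 (Lamp2, Ctsl and Neu1), against 15.7% of all genes. With compE it called Lamp2 higher and Ctsd lower. Neu1 had 1507 and 1283 counts with Fc-JAG1 and 0, 2246 and 3639 in the washout, so that here too washout 2 and 3 were above both Fc-JAG1 libraries. The 2 conditions also overlapped for Lamp2 (8291 and 905 against 0, 4525 and 0 counts) and Ctsl (4283 and 7392 against 0, 4602 and 6783). Of 15 subunits of the vacuolar ATPase, which acidifies lysosomes, DESeq2 called 1 higher with Fc-JAG1 (Atp6v1c1) and 0 with compE. Atp6v1c1 overlapped as well, at 1792 and 1982 counts with Fc-JAG1 and 2, 3014 and 1863 in the washout. edgeR had 0 lysosomal or vacuolar ATPase genes at an unadjusted p under 0.05 in either comparison. Among the tested receptors of selective autophagy beyond the 4 cargo receptors, DESeq2 called Retreg1 lower with compE, and 0 higher in either comparison.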

How the data were processed

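Nascent RNA was sequenced in 7 libraries, 2 with Fc-JAG1, 2 with compE and 3 of the washout. The authors, per the labels and methods, used cutadapt 4.2 for trimming, STAR 2.7.8 for alignment to GRCm38, and assigned unique reads to genes with featureCounts (Subread 2.0.1), and the raw counts were used as deposited, without normalization. The deposited normalized log2 values were not used here. The strand setting is not given in the sources used here. Total counts were 21652927 to 33974693 per library. PCR copies are not marked, so that intervals and floors of 3 counts cover counting error only.

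Genes with 10 counts in 2 replicates of a condition (10311) were tested with edgeR 4.0.16 (quasi-likelihood, TMM, R 4.3.3), with biological sample and condition as terms, and with DESeq2 1.42.0 (Wald test, same terms, same filter on either condition), each at a Benjamini-Hochberg adjusted p of 0.05. limma 3.58.1 (voom), other scalings and filters, no sample term and leaving out each library were alternatives, and the scripts were tested on simulated data. Pairing follows the sample number, since the study states that samples were paired. As a check, same-numbered libraries were compared after the mean of each condition was taken off, and correlated at −0.0854 to 0.0915 (5 pairs). Libraries of different number and condition correlated at −0.0964 to 0.0964. In a condition of 2 libraries these deviations are equal and opposite, so the check cannot decide on the pairing. With Fc-JAG1 over the washout, DESeq2 called 7 autophagy genes with the sample term and 2 without it. The common dispersion was 2.42. Standard errors (SE) given for edgeR were worked back from its test, as the absolute log2 fold change over the square root of the F statistic. They are approximate and can become large where F is small. Exons, overlaps and 50-base windows were taken from GENCODE M21 on GRCm38. The genes and lists were chosen with earlier results of these data known. Genes given per library are those with an edgeR unadjusted p under 0.05 or a DESeq2 call, with 10 counts in all libraries or without overlap against the washout, and the ATG8 genes. Further ones were chosen after their values were seen, such as Sqstm1. Of the other lists, most genes called by DESeq2 are named, the rest as counts, and the result of 1 gene is not reported here. The labels number the samples as embryos and the methods describe pooled material. In the main fits, p-values rest on the spread between libraries that is left after sample and condition are taken into account.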

Additional observations from a re-analysis of the deposited data

How the results depend on the processing

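Across 8 other settings of edgeR or limma and 7 fits without 1 library, the number of autophagy genes called stayed at 0 except with edgeR's likelihood ratio test, which called 1 with Fc-JAG1. Over all genes with Fc-JAG1, the likelihood ratio test called 132 higher and 3 lower and voom 78 higher and 6 lower, where the main test called 0, and the all-gene median moved to 0.07 (DESeq2 size factors) or 0.71 (total counts only), where TMM gave 0.44. The setting with only the groups compared could not be fitted for Fc-JAG1 against compE, which share 1 sample. With no replicate block, DESeq2 called 2 autophagy genes with Fc-JAG1, 1 with compE and 1 between Fc-JAG1 and compE, the edgeR log2 fold change of Pik3r4 with compE was −0.35, and the median between Fc-JAG1 and compE was −0.08. That median was −0.77 with the size factors of DESeq2, −0.18 with total counts only, −0.03 with no filter on low counts and −1.20 with voom, and with TMM factors DESeq2 called 5 genes there. Leaving out 1 library at a time, DESeq2 called 0 to 10 autophagy genes with Fc-JAG1, 0 to 5 with compE and 0 to 6 between them, and the median between them ran from −1.15 to 2.10. The log2 fold changes with Fc-JAG1 ran from −10.04 to 0.97 for Atg14 (edgeR), from −0.19 to 14.55 (edgeR) and −0.81 to 13.96 (DESeq2) for Atg16l1, and from −1.79 to 10.87 (edgeR) and −1.82 to 11.07 (DESeq2) for Pik3r4, and with compE from −0.99 to 14.56 (edgeR) and −1.02 to 13.56 (DESeq2) for Nbr1. The cause was not tested. Alternatives for levels that do not overlap were chosen after seeing the data, and without washout 1 or 3, which leaves fewer libraries to overlap, they gave 9 to 11 genes with compE (11 of 32 without washout 1, 10 higher and 1 lower, against 15.6% and 17.0% of all genes, and 9 without washout 3, 8 higher and 1 lower, against 16.4% and 12.6%). At a minimum of 1 count in place of 10, 26 genes were present in washout 1 and 30 in washout 3. At total counts of 21652927 or more, genes at 0 in 1 library had high counts in others.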

Other observations

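Between Fc-JAG1 and compE, DESeq2 called 10 of the 97 tested genes around the autophagy machinery higher with Fc-JAG1 and 1 lower (10.3% and 1.03%, against 9.18% and 2.21% of all genes), while edgeR called 0 and had 1, Tfe3, at an unadjusted p under 0.05. Ctsl, a lysosomal protease, had 4283 and 7392 counts with Fc-JAG1, 0 and 2460 with compE, and 0, 4602 and 6783 in the washout. The subunits of the vacuolar ATPase called here, Atp6v0a1, Atp6v0e and Atp6v1c1, had 2 to 3 counts in compE 1 and 4603, 4570 and 2168 in compE 2. Rptor, the mTORC1 subunit that binds its substrates, was the gene called lower with Fc-JAG1, with 7240 and 3748 counts against 19704 and 11401 with compE, and it had 4831, 5560 and 15212 in the washout. In the other genes named here compE 1 was at or near 0, whereas Rptor was counted in all 7 libraries. Its Fc-JAG1 libraries lay below both compE libraries without overlap, as was the case for 15.4% of all genes. For Rptor, edgeR gave a log2 fold change of −2.20 (SE 1.44, unadjusted p = 0.142).

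Pink1, the kinase that marks damaged mitochondria, had 1 and 0 counts with Fc-JAG1, 385 and 366 with compE, and 0, 676 and 0 in the washout, and no test called it (DESeq2 adjusted p = 0.0824 for Fc-JAG1 over compE).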
